A study of Arabidopsis thaliana with 11 samples.

Results

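The trdmt1 trm4b double mutant of Arabidopsis thaliana was set against its single mutants, trm4b-1 and trdmt1, at single cytosines of nuclear transfer RNAs. A cytosine entered if it had a methylation level in the double and in at least 1 single mutant, which held for 32 of the 39 cytosines listed, in 17 of 24 tRNA isodecoders. Of these, 29 had a level in both single mutants. The double carried the trdmt1 allele and the trm4b-1 allele together, both T-DNA insertions, and trm4b-1 and trdmt1 each carried 1 of them. All were of the Columbia ecotype, and RNA came from seedlings 10 days after germination. Each mutant was 1 library, and the wild type level was the authors' mean of 3 libraries without a spread. A second insertion allele, trm4b-2, and its own wild type were 1 library each from flower buds. The trm4b-2 library had lost the enzyme TRM4B but not TRDMT1, and neither bud library played a part in choosing the sites.

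Methylation was read by RNA bisulfite sequencing (RBS-seq), in which 5-methylcytosine (m5C) stays C while unmethylated cytosine is read as T, so that a level is the percent of reads with C. No replicate of a mutant existed and the reads behind each level were unknown, so no difference between genotypes could be tested and every comparison is a description of these libraries. A difference of 10 percentage points was used to sort sites. Among trm4a, nop2a-2 and nsun5-2, 3 other seedling libraries that carry both enzymes, the 79 pairwise differences at these sites had a median size of 2 points, a largest of 43, and 18 of them reached 10 points. For the 4 pairs at sites with N.D. (no level) in some library, the median was 20 points, so differences at such sites are the least secure.

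TRDMT1 belongs to the DNMT2 family, whose members look like DNA methyltransferases but methylate a cytosine of the tRNA anticodon loop, C38. TRM4B is a plant homologue of yeast Trm4 and mammalian NSUN2, which methylate the junction between the variable region and the T stem, at C48, C49 and C50. In mouse, loss of both Dnmt2 and NSun2 is more severe than loss of either, and tRNA methylation by these enzymes is known to protect tRNA from cleavage. The double mutant asks whether either enzyme covers for the other at a shared cytosine, and which cytosines are methylated without both.

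The genotype labels could be checked on the tRNAs themselves. C38 stood at 0% in the double at 3 of 3 tRNAs and at 0 to 1% in trdmt1, against 90 to 92% in trm4b-1. C50 stood at 0 to 1% in the double and in trm4b-1 at 5 of 5 tRNAs, against 87 to 94% in trdmt1.

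The 3 tRNAs that lost sites of both enzymes are shown first, because both enzyme classes act on 1 molecule there. Sequences are the authors' consensus, DNA letters, 5′ to 3′, with the cytosines listed as methylated in capitals: the first capital is C38, the next run covers C48 and C49 (and C50 where 3 letters are capital), and the last capital of Asp(GTC) is C72.
Asp(GTC): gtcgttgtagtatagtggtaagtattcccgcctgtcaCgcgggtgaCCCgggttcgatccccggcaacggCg
Gly(GCC): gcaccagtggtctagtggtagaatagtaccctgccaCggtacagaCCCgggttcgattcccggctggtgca
Gly(CCC): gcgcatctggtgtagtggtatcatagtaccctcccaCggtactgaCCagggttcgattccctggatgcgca
The consensus of Asp(GTC) stands for 25 loci, the first in the authors' list being AT1G03515 (chr1:877648-877719) on TAIR10. Gly(GCC) stands for 22 loci beginning with AT1G06860 (chr1:2107398-2107468), and Gly(CCC) for 5 beginning with AT2G47740 (chr2:19559855-19559925). The letters CACG at positions 36 to 39, the second C being C38, were looked for at that place on the tRNA strand. They occurred in these 3 tRNAs and in no other of the 17, although 7 of the 17 have a C at position 38, and in 4 of 57 nuclear consensus sequences. The fourth was Val(TAC), which had no listed site.

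The tRNAs below were at 20% or more at C48 in the double, and are shown because their variable regions can be set beside those of the tRNAs that lost it. Lys(TTT) only just reached that level, at 22% against 66% in wild type, and so lost most of its methylation. The capital is C48, with C49 beside it in Gln(CTG).
Lys(CTT): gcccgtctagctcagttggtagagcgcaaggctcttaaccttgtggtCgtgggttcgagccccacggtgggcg
Gln(CTG): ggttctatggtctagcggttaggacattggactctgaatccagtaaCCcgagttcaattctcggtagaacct
Thr(CGT): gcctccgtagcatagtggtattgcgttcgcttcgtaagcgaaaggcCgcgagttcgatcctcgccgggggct
Gln(TTG): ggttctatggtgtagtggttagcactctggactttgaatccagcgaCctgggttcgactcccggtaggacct
Lys(TTT): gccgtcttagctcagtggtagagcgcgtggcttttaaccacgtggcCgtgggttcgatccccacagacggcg
Their first loci on TAIR10 are AT1G01890 (chr1:309275-309347), AT2G16240 (chr2:7039094-7039165), AT1G13720 (chr1:4709635-4709706), AT1G21420 (chr1:7499733-7499804) and AT1G79290 (chr1:29833117-29833188). The 17 consensus sequences together stand for 192 loci, 191 of which the RefSeq gene table lists as tRNA genes, and a level is therefore that of a family of loci.

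The last set is shown because its members carry 1 and the same stretch around C49. The capitals are C49 and C50 in Glu(CTC), and C48, C49 and C50 in Glu(TTC) and Gly(TCC).
Glu(CTC): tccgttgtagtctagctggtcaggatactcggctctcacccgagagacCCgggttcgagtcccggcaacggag
Glu(TTC): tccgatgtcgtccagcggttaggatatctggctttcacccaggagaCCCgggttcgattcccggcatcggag
Gly(TCC): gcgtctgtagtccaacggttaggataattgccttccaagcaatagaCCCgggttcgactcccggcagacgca
The 9 bases from position 45 to 53, agacccggg in plain letters, were identical in these 3 tRNAs and in Gly(GCC).

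Of the 32 sites, 24 differed from the lower single mutant by under 10 points, 7 were higher and 1 was lower, so that 25% of sites differed. The median difference was 0 points, with a range of -78 to 45. Of the 24 sites, 17 were at 5% or less in both the double and the lower single mutant, where no further fall could be seen. Among the 15 sites above 5% in the double, 7 differed by under 10 points, 7 were higher and 1 was lower. Of the 7 higher sites, 4 had a level in every library, and the other 3 were on the glutamine tRNAs, which had N.D. in some. At these 4, the libraries of trm4a, nop2a-2 and nsun5-2 ranged over 33 points at Arg(ACG) C49, 11 at Lys(CTT) C48, 4 at Glu(TTC) C49 and 2 at Asp(GTC) C49. No site that both single mutants kept was lost in the double: 11 sites were at 20% or more in both, and 0 of these 11 were under 20% in the double. In the other direction, all 17 sites at 5% or less in the double were already at 5% or less in a single mutant.

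**Figure D1:**
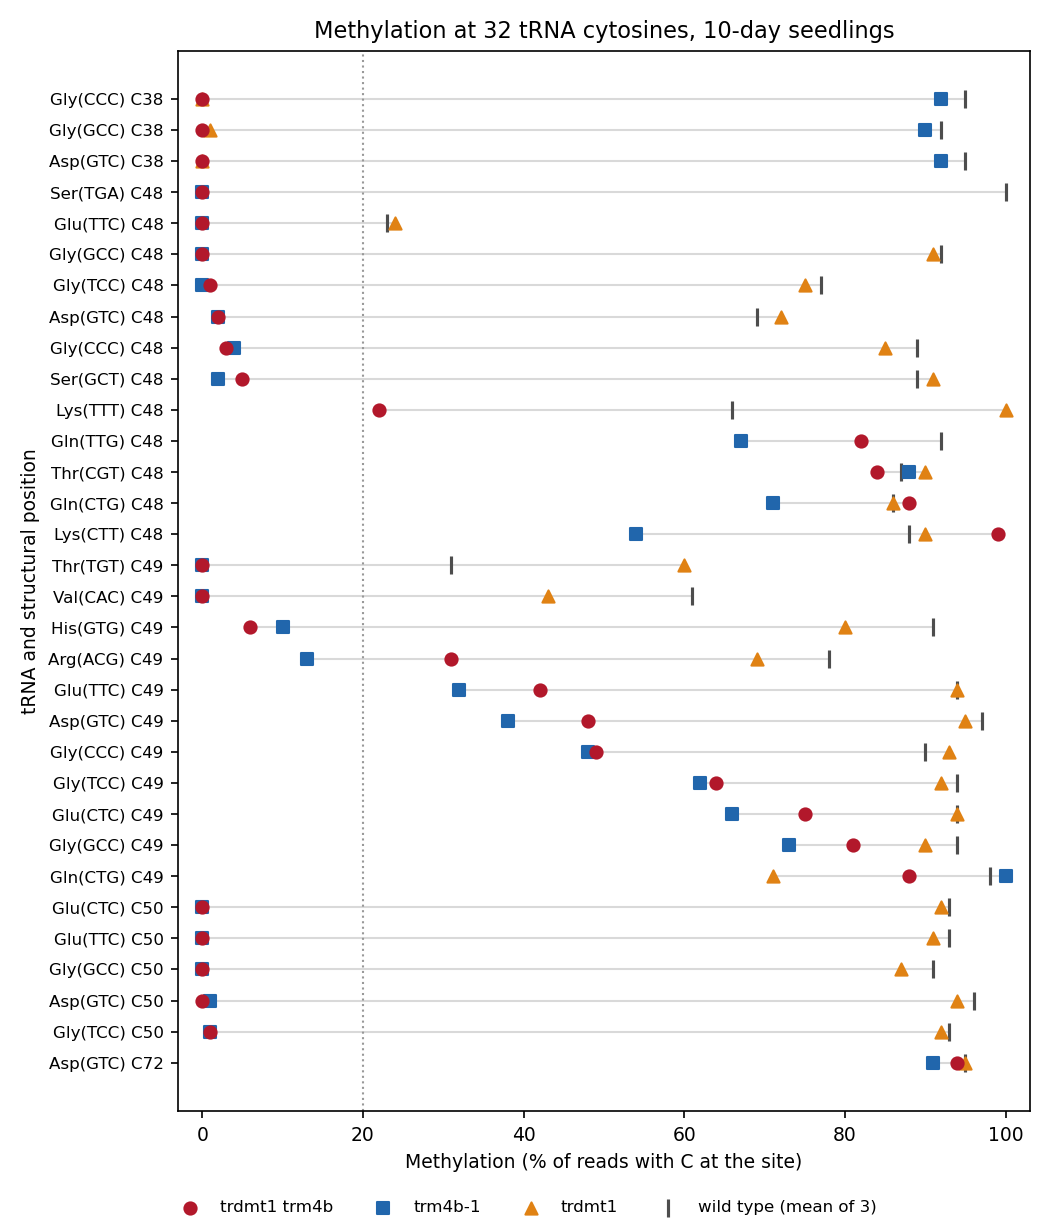
Methylation level (percent of reads with C, horizontal axis) at each of the 32 cytosines, grouped by structural position and ordered by the level in trdmt1 trm4b. Circles are trdmt1 trm4b, squares trm4b-1, triangles trdmt1 (1 library each) and bars the wild type mean of 3 libraries, and the dotted line is at 20%. At C38 the circles lie on the triangles at 0 to 1%, at C50 on the squares at 0 to 1%, and at C49 they spread between 0 and 88%.

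**Figure D2:**
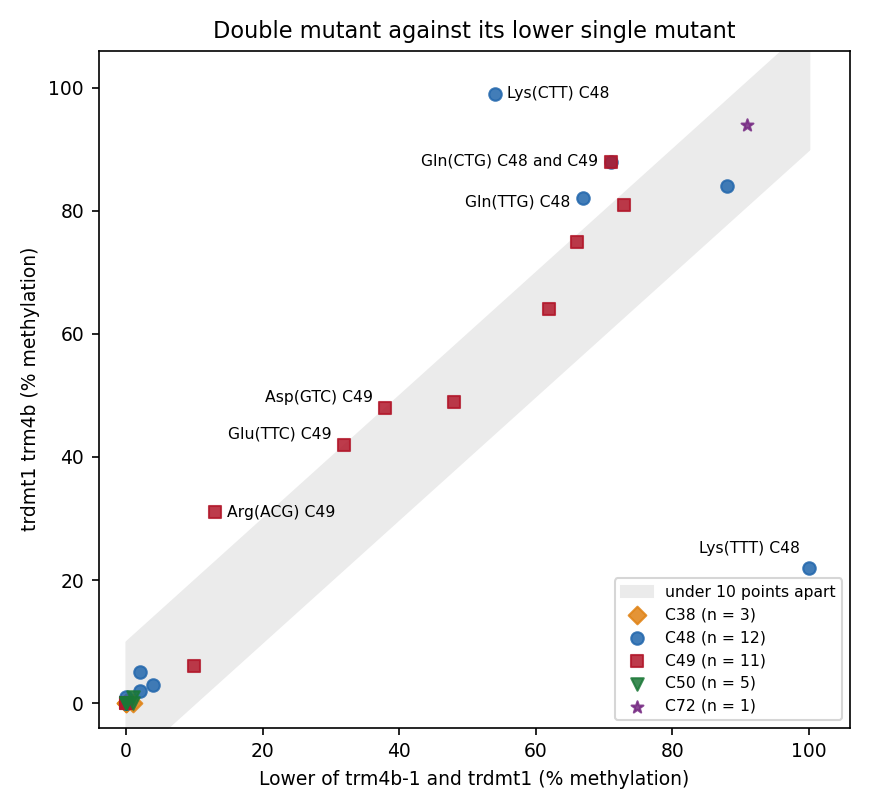
Level in trdmt1 trm4b (vertical axis, percent) against the lower of trm4b-1 and trdmt1 (horizontal axis, percent), 1 point per site, with a symbol for each structural position and a grey band for differences under 10 points. Of 32 sites 24 lie in the band, 7 lie above it or on its upper edge and 1, Lys(TTT) C48, lies below it, where trdmt1 was the only single mutant with a level.

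At C38, the anticodon loop site of TRDMT1, Asp(GTC) was at 0% in the double, 92% in trm4b-1, 0% in trdmt1 and 95% in wild type. Gly(GCC) C38 was at 0% in the double, 90% in trm4b-1, 1% in trdmt1 and 92% in wild type. Gly(CCC) C38 was at 0% in the double, 92% in trm4b-1, 0% in trdmt1 and 95% in wild type. The double thus lay with trdmt1 and 90 to 92 points below trm4b-1 at all 3 sites, which were also used above to check the labels. In trm4b-2 buds, which carry TRDMT1, the sites were at 93% in Asp(GTC), 94% in Gly(GCC) and 95% in Gly(CCC), against 93 to 96% in wild type buds.

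C50 behaved in the mirror way. Levels in the double were 0% in Asp(GTC), Gly(GCC), Glu(CTC) and Glu(TTC) and 1% in Gly(TCC). The same sites were at 0 to 1% in trm4b-1, at 87 to 94% in trdmt1 and at 91 to 96% in wild type. In trm4b-2 buds they were at 0 to 1% as well. The double was lower than trdmt1 by 87 to 94 points at these C50 sites, which are the ones used above to check the labels.

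C48 divided the tRNAs into lost and kept sites. In the double, 7 of 12 sites were at 5% or less: Gly(GCC), Glu(TTC) and Ser(TGA) at 0%, Gly(TCC) at 1%, Asp(GTC) at 2%, Gly(CCC) at 3% and Ser(GCT) at 5%. These 7 were at 0 to 4% in trm4b-1. Of them, 6 had a level in trdmt1, where Glu(TTC) was at 24%, against 23% in wild type, and the others were at 72 to 91%. The remaining 5 were at 20% or more in the double. Of these, 4 were at 82% or more, and Lys(TTT) was at 22%, against 66% in wild type.

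Lys(CTT) C48, the highest site of the double, was at 99% in the double, 54% in trm4b-1, 90% in trdmt1 and 88% in wild type. The double was 45 points above trm4b-1, the widest rise over a lower single mutant at any of the 32 sites. In buds it was at 67% in trm4b-2, against 90% in wild type buds, so both trm4b single mutants were below their wild types and the double was not. The 3 other libraries with both enzymes held 89% (trm4a), 100% (nop2a-2) and 95% (nsun5-2).

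The glutamine tRNAs also kept C48. Gln(CTG) C48 was at 88% in the double, 71% in trm4b-1, 86% in trdmt1 and 86% in wild type. Gln(TTG) C48 was at 82% in the double and 67% in trm4b-1, had no level in trdmt1, and was at 92% in wild type. The double was above trm4b-1 at both, by 17 points in Gln(CTG) and 15 in Gln(TTG). In libraries with both enzymes, Gln(CTG) C48 was at 100% in trm4a and 80% in nop2a-2, a wider gap than that rise. Gln(TTG) C48 was at 80% in trm4a and had no level in nop2a-2 or nsun5-2. In trm4b-2 buds Gln(CTG) C48 was at 93%, against 90% in wild type buds, and Gln(TTG) C48 at 84%, against 86% in wild type buds.

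Thr(CGT) C48 barely differed between genotypes, at 84% in the double, 88% in trm4b-1, 90% in trdmt1 and 87% in wild type. Lys(TTT) C48 was at 22% in the double, had no level in trm4b-1, and was at 100% in trdmt1 and 66% in wild type. It is the single site where the double was lower than the lower single mutant, by 78 points, and there the lower single mutant was trdmt1 by default. In trm4b-2 buds it was at 20%, against 73% in wild type buds.

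The lysine tRNAs thus stood far apart in the double, at 99% for Lys(CTT) and 22% for Lys(TTT). Lys(TTT) C48 had no level in trm4b-1, trm4a, nop2a-2 or nsun5-2, so this contrast is among the least secure. Their 9 bases from position 45 to 53 differ at 1 position, T47C, with the base of Lys(CTT) first and positions in structural numbering. The consensus sequences printed above differ at further positions outside that stretch. The base after C48 did not sort kept from lost sites: it was C in Gln(TTG) and Gln(CTG), both kept, and C in 5 of the 7 lost sites.

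Among the 32 sites, levels from 6 to 81% in the double were at C49, apart from Lys(TTT) C48 at 22%. Of 11 sites, 8 were at 20% or more in the double, His(GTG) was at 6%, and Thr(TGT) and Val(CAC) were at 0%. Thr(TGT) C49 was at 0% in the double, 0% in trm4b-1, 60% in trdmt1 and 31% in wild type. Val(CAC) C49 was at 0% in the double, 0% in trm4b-1, 43% in trdmt1 and 61% in wild type.

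For the tRNAs with a C38 site, C49 of Asp(GTC) was at 48% in the double, 38% in trm4b-1, 95% in trdmt1 and 97% in wild type. Gly(GCC) C49 was at 81% in the double, 73% in trm4b-1, 90% in trdmt1 and 94% in wild type. Gly(CCC) C49 was at 49% in the double, 48% in trm4b-1, 93% in trdmt1 and 90% in wild type. On these 3 tRNAs C49 in the double was thus 1 to 10 points above trm4b-1.

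Among tRNAs without a listed C38 site, Glu(CTC) C49 was at 75% in the double, 66% in trm4b-1, 94% in trdmt1 and 94% in wild type. Glu(TTC) C49 was at 42% in the double, 32% in trm4b-1, 94% in trdmt1 and 94% in wild type. Gly(TCC) C49 was at 64% in the double, 62% in trm4b-1, 92% in trdmt1 and 94% in wild type. With Gly(GCC), these are the tRNAs that share agacccggg around C49, and the same 9 bases went with levels of 42 to 81% in the double and 32 to 73% in trm4b-1.

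Arg(ACG) C49 was at 31% in the double, 13% in trm4b-1, 69% in trdmt1 and 78% in wild type. His(GTG) C49 was at 6% in the double, 10% in trm4b-1, 80% in trdmt1 and 91% in wild type. Arg(ACG) was the 1 site at 20% or more in the double that was under 20% in a single mutant. In trm4b-2 buds it was at 29%, close to the double, against 87% in wild type buds. The 3 other libraries with both enzymes held 92% (trm4a), 100% (nop2a-2) and 67% (nsun5-2), a range of 33 points, wider than the 18 points between the double and trm4b-1.

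Gln(CTG) C49 was unlike the rest, at 88% in the double, 100% in trm4b-1, 71% in trdmt1 and 98% in wild type. Its lower single mutant was trdmt1, and the double was 17 points above that and 12 points below trm4b-1. Its C49 was at 100% in trm4a and 80% in nop2a-2, a wider gap than either of these differences. This tRNA had no level in nsun5-2.

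**Figure D3:**
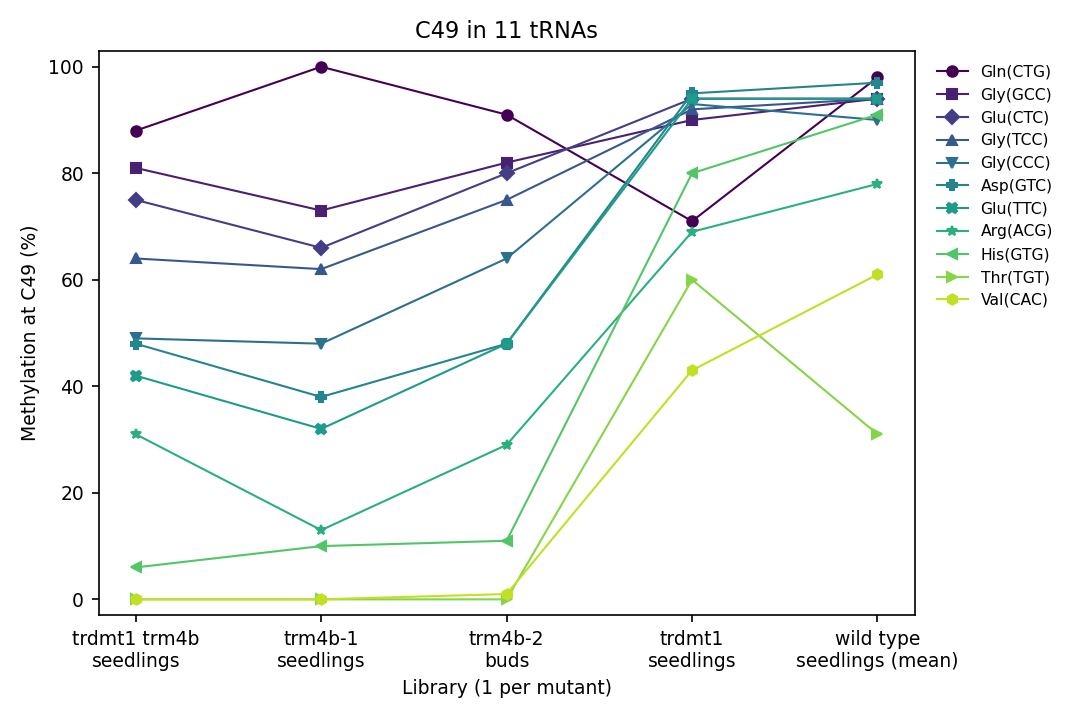
Methylation at C49 (vertical axis, percent) of 11 tRNAs in trdmt1 trm4b, trm4b-1, trm4b-2 buds, trdmt1 and the wild type seedling mean (horizontal axis), with a line for each tRNA to guide the eye. The lines keep their vertical order between trdmt1 trm4b and trm4b-1, and at 7 of the 8 sites between 6 and 81% the level in trdmt1 trm4b is the higher.

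The order of the partial C49 sites was the same in the double and in trm4b-1: Gly(GCC), Glu(CTC), Gly(TCC), Gly(CCC), Asp(GTC), Glu(TTC), Arg(ACG) and His(GTG), from high to low. Spearman's rho was 1 over these 8 sites, which come from 1 library of each genotype and share the trm4b-1 allele. With trm4b-2 buds, another allele and tissue, rho was 0.994, Asp(GTC) and Glu(TTC) being tied there at 48%. Wild type levels at these sites were 78 to 97%. The double was above trm4b-1 at 7 of 8 sites and trm4b-2 buds were above trm4b-1 at 8 of 8. Gln(CTG) C49 was left out of these 8 and went the other way, at 88% in the double and 91% in trm4b-2 buds against 100% in trm4b-1.

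C72, at the acceptor end, was listed in Asp(GTC) alone. It was at 94% in the double, 91% in trm4b-1, 95% in trdmt1 and 95% in wild type. This site showed no fall of 10 points in any mutant combination compared here.

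Altogether 14 of the 32 sites were at 20% or more without both enzymes, 5 at C48, 8 at C49 and 1 at C72. The level in the double was at 80% or more at 7 sites and at least 50% of the wild type level at 10. Of the 14 sites, 12 had levels in both single mutants, and 11 of these 12 were at 20% or more in both. In trm4b-2 buds, which lack TRM4B alone, 14 of the 14 were at 20% or more, with Lys(TTT) C48 at exactly 20%. The sites without methylation outside C38 were also at 5% or less in trm4b-2 buds at 13 of the 13 with a level there.

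The loss of TRDMT1 in a trm4b-1 plant was read from the double against trm4b-1 outside C38. Of 28 sites, 25% differed by 10 points or more: 6 were higher in the double and 1, Gln(CTG) C49, was lower. The median difference was 0 points. In the tRNAs with a C38 site, the difference at the 9 other sites was -1 to 10 points and reached 10 at 1 of them, Asp(GTC) C49. In the tRNAs without one, 5 of 19 sites were higher and 1 was lower, and 3 of these 6 were glutamine sites with N.D. in some library. The difference between these groups of tRNAs was not tested. Whether the rises exceed the spread between libraries was not tested.

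The loss of TRM4B in a trdmt1 plant was read from the double against trdmt1 at C48, C49 and C50. Here 84.6% of 26 sites differed by 10 points or more, 21 lower in the double and 1 higher, again Gln(CTG) C49. The median difference was -56 points over all 26 sites, -72 at C48, -43 at C49 and -91 at C50. The 4 sites under 10 points apart were Lys(CTT), Thr(CGT) and Gln(CTG) at C48 and Gly(GCC) at C49.

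Adding up levels over the sites of a tRNA gives the mean number of methylated cytosines per molecule. Asp(GTC), with 5 sites, held 1.44 m5C in the double, 2.24 in trm4b-1, 3.56 in trdmt1 and 4.52 in wild type. Gly(GCC), with 4 sites, held 0.81 m5C in the double, 1.63 in trm4b-1, 2.69 in trdmt1 and 3.69 in wild type. Gly(CCC), with 3 sites, held 0.52 m5C in the double, 1.44 in trm4b-1, 1.78 in trdmt1 and 2.74 in wild type. On these 3 tRNAs the double was the lowest of the 4 genotypes, at 19.0% of the wild type sum in Gly(CCC) and 31.9% in Asp(GTC), with Gly(GCC) between.

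Subtracting the losses of both single mutants from the wild type gives the sum that would remain if the losses simply added up. For Asp(GTC) this was 1.28 m5C, and the double was 0.16 above it. For Gly(GCC) it was 0.63 and the double was 0.18 above, and for Gly(CCC) 0.48 and 0.04 above. At C38, C48 and C50 of these tRNAs the double and 1 single mutant were both at 4% or less. The sum was nearly fixed at those positions, so its closeness to the double cannot show whether losses add up. In Asp(GTC) and Gly(GCC) most of the excess was at C49, a difference of 12 points at each. In Gly(CCC) the double at C49 lay below the added losses, and the excess came from C38 and C48. None of these departures was tested.

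Of the tRNAs with several sites but no listed C38, Gly(TCC), Glu(TTC) and Glu(CTC) held sums in the double within 0.1 m5C of trm4b-1. Gly(TCC) held 0.66 m5C in the double, 0.63 in trm4b-1, 2.59 in trdmt1 and 2.64 in wild type. Glu(TTC) held 0.42 in the double, 0.32 in trm4b-1, 2.09 in trdmt1 and 2.10 in wild type. Glu(CTC) held 0.75 in the double, 0.66 in trm4b-1, 1.86 in trdmt1 and 1.87 in wild type. Gln(CTG) kept nearly all of its methylation, with 1.76 m5C in the double, 1.71 in trm4b-1, 1.57 in trdmt1 and 1.84 in wild type.

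Over the 29 sites with a level in all 4 genotypes the sum was 8.61 m5C in the double, 10.3 in trm4b-1, 21.4 in trdmt1 and 24.7 in wild type, so that the double kept 34.9% of the wild type sum. The sum left by adding the losses of the single mutants was 7.02, and the double was 1.59 above it. Much of this came from few sites: Gln(CTG) gave 0.32 m5C, Lys(CTT) C48 43 points and Arg(ACG) C49 27 points. Thr(CGT) C48, at -7 points, and Thr(TGT) C49 were among those that went the other way. Thr(TGT) C49 was at 0% in the double and in trm4b-1, 60% in trdmt1 and 31% in wild type. It fell further below its added losses than Arg(ACG) C49 rose above, so the excess is a net of large terms in both directions. At Val(CAC) C49, at 0% in trm4b-1, the added losses exceed the wild type level, which no real level can do. The same held by a few points at other sites near 0% in a single mutant, among them the C38 sites and Gly(GCC) C50. At such sites the double could only lie above the added losses, which adds to the excess. The excess was not tested.

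**Figure D4:**
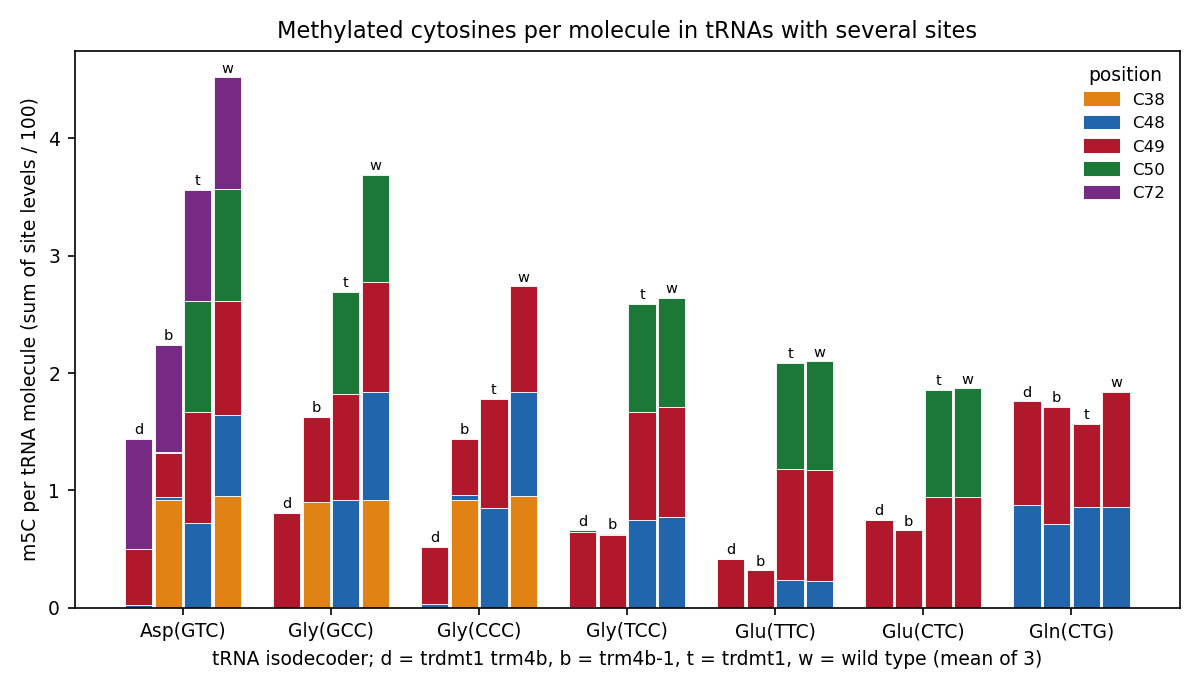
Methylated cytosines per tRNA molecule (vertical axis, sum of site levels divided by 100), stacked by structural position, for 7 tRNAs with several sites. In each group of bars, from left to right, d is trdmt1 trm4b, b is trm4b-1, t is trdmt1 (1 library each) and w is the wild type mean of 3 libraries. Asp(GTC), Gly(GCC) and Gly(CCC) have their lowest bar in trdmt1 trm4b, at 1.44, 0.81 and 0.52 m5C, while in the other tRNAs the bar of trdmt1 trm4b is close to that of trm4b-1.

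The other 7 listed sites lacked a level in the double or in both single mutants. Of these, 3 had a level in the double: Ile(AAT) C48 was at 25%, against 33% in wild type, Leu(TAA) C48 at 0%, against 72% in wild type, and Ser(CGA) C48 at 0%, against 83% in wild type. Ile(AAT) C48 was at 38% in trm4b-2 buds, against 49% in wild type buds. The remaining 4, Arg(TCG) C48 and C49 of Ala(AGC), Ala(CGC) and Ala(TGC), had no level in the double.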

How the data were processed

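The series held 11 bisulfite libraries of gel-purified tRNA, 9 of them from seedlings and 2 from buds. The authors aligned trimmed reads with CLC Genomics Workbench, whose version was not given in the sources used here. The reference was 100 tRNA consensus sequences with each C replaced by T, made from TAIR10, the build in the submitters' processing notes. The deposited values are percent methylation, computed by the authors as the share of C among all C and T calls at a cytosine, in whole percents. The authors set a minimum of 5 reads for a value, at which 1 read is worth 20 points, and of 20% for a site. Depth per site was unknown, so no interval or detection limit was given. Other cytosine modifications that resist bisulfite read as m5C. The mutant columns were matched to samples by genotype name.

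For each site the level in the double was compared with the lower single mutant, with trm4b-1 outside C38, and with trdmt1 at C48 to C50. A difference under 10 points was called equal, 20% or more kept, and 5% or less without methylation. The lower of a pair of noisy values is low by selection, so the double tends to lie above it. With 1 library per mutant no test was made. Sites and lists were chosen with earlier results of these data known. Named with values were sites at C38, C49, C50 and C72, kept sites, sites differing by 10 points and sites of tRNAs with a C38 site. Positions 48 to 72 were counted from the 3′ end and 32 to 39 from the anticodon. Gene names and types came from a RefSeq table of assembly TAIR10.1, and coordinates are the authors'. Alternatives were other thresholds, fully measured sites, the enzyme-matched single mutant and the product of the single mutants over wild type. Software was scipy 1.17.1, numpy 2.4.6 and, for plots, matplotlib 3.10.9, under Python 3.11.15.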

Additional observations from a re-analysis of the deposited data

Results flagged for a closer look

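Of the 29 sites with a level in both single mutants and the double, 8 had opposite signs for the loss of 1 enzyme with and without the other. Each mutant was 1 library, and the difference between these effects was not tested. An effect of 10 points or more was involved only at Lys(CTT) C48, Gln(CTG) C48, Arg(ACG) C49 and Asp(GTC) C49. At the other sites both effects were under 10 points, where small differences between libraries can set the sign. The difference of effects is the double minus both single mutants plus wild type, in percentage points. At Lys(CTT) C48 the loss of TRM4B gave +9 in trdmt1 and -34 in wild type, a difference of 43. At Gln(CTG) C48 it gave +2 in trdmt1 and -15 in wild type, a difference of 17. That site was at 100% in trm4a and 80% in nop2a-2, and had N.D. in nsun5-2. At Arg(ACG) C49 the loss of TRDMT1 gave +18 in trm4b-1 and -9 in wild type, a difference of 27. At Asp(GTC) C49 it gave +10 in trm4b-1 and -2 in wild type, and at Gly(GCC) C49 +8 and -4, a difference of 12 at each. At Thr(CGT) C48, where both enzymes' losses changed sign, the difference was -7. At Gly(TCC) the differences were 3 at C48 and 4 at C49. Differences between the libraries of trm4a, nop2a-2 and nsun5-2, which carry both enzymes, reached 10 points in 18 of 79 pairs. The largest was 43 points, at Val(CAC) C49, which had N.D. in nop2a-2, and 33 points at sites with a level in every library. These 3 libraries ranged over 33 points at Arg(ACG) C49, 11 at Lys(CTT) C48, 7 at Thr(CGT) C48, 5 at Gly(GCC) C49 and 2 at Asp(GTC) C49. Such a difference holds 2 levels and a difference of effects holds 4, so the measures are not alike.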

How the results depend on the processing

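Of 31 alternative values, 23 stayed within 1.5 times the count reported. The count of sites higher in the double than in the lower single mutant was 7, and fell to 1 with a difference of 20 points, Lys(CTT) C48, and to 4 among the 25 sites with a level in every library. The count of sites lower was 1 and became 0 with levels required in both single mutants, 0 with levels in every library and 0 against the product of the single mutants over wild type, since each of these leaves out Lys(TTT) C48. Kept sites numbered 14, and 9 at a minimum of 50%. Sites differing between the double and trm4b-1 outside C38 numbered 7, with 1 at a difference of 20 points and 4 among fully measured sites. Sites equal to the lower single mutant were 24 of 32, and 24 of 31 against the enzyme-matched single mutant, where 6 were higher and 1 lower.

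No paired analysis was possible because each mutant had 1 library. Leaving out a replicate was likewise not possible. Depth per site was unknown, the wild type mean came without its spread, and genotype and library cannot be told apart for any mutant, so differences of 10 to 20 points have no replicate check. Sites near 0% depend on complete conversion, and no control transcript was analysed here.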
